A study of Mus musculus with 2 samples.

Results

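The water channels Aqp1, Aqp2, Aqp3, Aqp4, Aqp6, Aqp7 and Aqp11, the vasopressin V2 receptor Avpr2 and the urea transporters Slc14a1 (UT-B) and Slc14a2 (UT-A) were followed through the cells of the postischemic mouse kidney. All 10 were found by symbol among the 32285 genes of the count tables. Kidneys were collected on day 14 after 25 minutes of unilateral ischemia from 1 Cre- mouse and 1 PHDTiEC mouse, which carries Cdh5-CreERT2 and floxed alleles of Phd1, Phd2 and Phd3. Both were males, 8 to 10 weeks old at the time of surgery, that received 3 mg of tamoxifen per dose, 4 times, after the injury. Cdh5-CreERT2 is active in vascular endothelium, so the tubule cells that express most of the 10 genes are not its target.

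Water leaves the proximal tubule and the thin descending limb through the constitutively open channel AQP1. In the collecting duct vasopressin acts through AVPR2 and cAMP to place AQP2 in the apical membrane of principal cells, while AQP3 and AQP4 form the basolateral exit. UT-A and UT-B move urea between duct, thin limb and descending vasa recta, which keeps the medulla concentrated.

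Each genotype had 1 library, so no test between genotypes was possible and cells were not treated as replicates. The Cre- library held 136004367 UMIs (unique molecular identifiers, each 1 captured transcript) and 8548 kept cells with a median of 7500 UMIs. The PHDTiEC library held 146758812 UMIs and 9309 kept cells with a median of 7898 UMIs, and 28 barcode sequences were kept in both. Paired values below give Cre- first. A level is the summed UMIs of a gene in a cell class per 1000000 UMIs of that class (CPM), with its exact Poisson 95% interval, and a ratio is log2 of PHDTiEC over Cre-, with an exact binomial 95% interval. These intervals cover counting error within a library and not the spread between cells or between mice. They take UMIs as independent, although single cells held a large part of several counts below. The 3′ counts need not cover the deleted exons and did not check the genotype: over all endothelial-like cells Egln2 (PHD1) was at 36.9 and 38.5 CPM, Egln1 (PHD2) at 67.6 and 188 CPM and Egln3 (PHD3) at 24.8 and 146 CPM, so directions below refer to the library labelled PHDTiEC.

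Cells fell into 31 clusters, grouped into 26 classes named from markers that hold none of the 10 genes. CD-like cells (collecting duct, 273 and 301 cells) carried the CD list at 4544 and 5575 CPM and connecting tubule markers at 8162 and 7550 CPM. A deep cluster called IC-like with CD markers (367 and 410 cells, median 47919 and 52547.5 UMIs) was led by the intercalated cell regulator Foxi1 and carried all 6 CD markers as well, at 3698 and 4156 CPM, beside the intercalated list at 2927 and 2734 CPM and the connecting tubule list at 5417 and 6538 CPM. By marker UMIs alone 534 of its cells were set as CD, 104 as connecting tubule and 111 as IC. IC-like cells (180 and 110) carried the intercalated list at 7676 and 8373 CPM and the CD list at 379 and 459 CPM. Cluster 24 (91 and 112 cells) mixed arterial endothelial genes with the mural gene Rgs5 and was left unnamed.

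**Figure D1:**
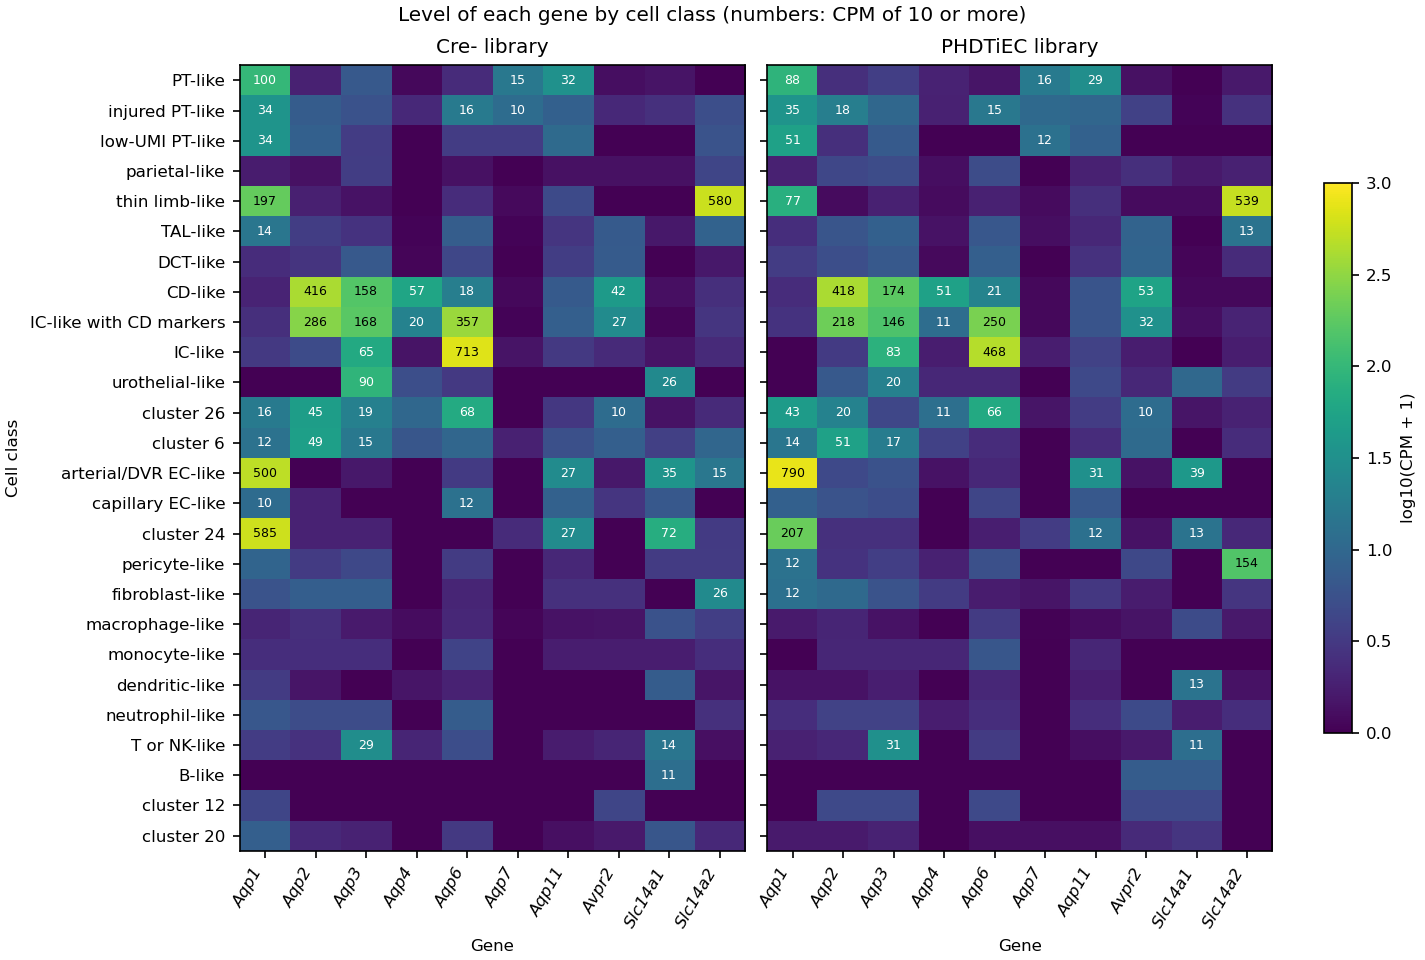
Level of the 10 genes (columns) in 26 cell classes (rows) of each library, coloured by log10(CPM + 1), with the CPM printed where it is 10 or more. Aqp2, Aqp3, Aqp4 and Avpr2 share the CD-like and IC-like with CD markers rows, and Slc14a2 stands in the thin limb-like row at 580.3 and 539 CPM.

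Aqp2, the vasopressin-regulated channel of the apical membrane, did not differ beyond counting error between the CD-like cells of the libraries. It stood at 416 CPM (399.6 to 433, 2461 UMIs) for Cre- and 418 CPM (402 to 434, 2717 UMIs) for PHDTiEC, a log2 ratio of 0.01 (-0.07 to 0.09). A UMI was found in 57.1% and 57.1% of CD-like cells. In IC-like with CD markers Aqp2 was at 286 and 219 CPM, a log2 ratio of -0.39 (-0.45 to -0.33), lower in the library labelled PHDTiEC. CD-like cells held 32.9% and IC-like with CD markers 61.1% of all Aqp2 UMIs in kept cells. Neutrophil-like cells, which do not make AQP2, had a UMI in 0.799% and 0.603% of cells at a median depth of 1774 and 1770 UMIs, against 15963 and 15577 UMIs in CD-like cells.

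AQP3 forms the basolateral path out of the same cells. Aqp3 was at 158 and 174 CPM in CD-like cells, a log2 ratio of 0.14 (0.02 to 0.27), and at 168 and 146 CPM in IC-like with CD markers, a log2 ratio of -0.20 (-0.28 to -0.13). The intervals of these classes overlapped for Cre- (148 to 169 and 162 to 174 CPM) and not for PHDTiEC (164 to 185 and 141 to 151 CPM). The CD-like ratio turned negative in classes set by marker UMIs alone. IC-like cells were at 65.1 and 82.6 CPM and urothelial-like cells, with 42 and 17 UMIs, at 89.8 and 20.02 CPM. Among CD-like cells with Aqp2, 74.4% and 76.2% also held Aqp3.

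Outside the tubule Aqp3 was seen in T or NK-like cells, at 28.9 CPM (23.1 to 35.7, 85 UMIs) and 30.6 CPM (25.1 to 37.1, 105 UMIs). A UMI was found in 11.1% and 9.79% of them at median depths of 3336 and 3407.5 UMIs, against 0.799% and 0.453% of neutrophil-like cells. With each cell thinned to 1000 UMIs these shares were 3.47% and 2.92% in T or NK-like and 0.329% and 0.309% in neutrophil-like cells. In barcodes under 100 UMIs, which hold free RNA, Aqp3 was at 27.2 and 30.9 CPM and Aqp2 at 56.4 and 52.1 CPM. In T or NK-like cells Aqp2 was at 1.698 and 1.17 CPM. The part of free RNA in the Aqp3 counts of these cells was not tested. Of the 3 genes measured with at least 20 UMIs in T or NK-like cells 0 differed 2-fold or more between the libraries, against 3.55% of all genes.

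AQP4 is the other basolateral channel. Aqp4 was at 57.1 CPM (51.2 to 63.5, 338 UMIs) and 51.2 CPM (45.9 to 57.01, 333 UMIs) in CD-like cells, a log2 ratio of -0.16 (-0.38 to 0.07), with a UMI in 29.3% and 21.9% of cells. In IC-like with CD markers it was at 20.3 and 10.9 CPM, a log2 ratio of -0.90 (-1.15 to -0.65), lower in the library labelled PHDTiEC. Of the CD-like cells with Aqp2, 35.9% and 26.7% held Aqp4.

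Avpr2, the receptor through which vasopressin reaches the duct, was highest in CD-like cells, at 42.1 CPM (37.01 to 47.6, 249 UMIs) and 53.4 CPM (47.9 to 59.3, 347 UMIs). Its log2 ratio was 0.34 (0.10 to 0.58) there and 0.23 (0.06 to 0.40) in IC-like with CD markers, which were at 27.2 and 31.9 CPM. DCT-like cells (6.27 and 8.15 CPM) and TAL-like cells (6.13 and 7.96 CPM), of the segments in which the receptor also acts on salt uptake, followed among the named tubule classes with overlapping intervals. An Avpr2 UMI was found in 47.99% and 48.8% of CD-like, 14.1% and 18.5% of DCT-like and 13.8% and 17.5% of TAL-like cells. The log2 ratio was 0.38 (-0.12 to 0.89) in DCT-like and 0.38 (-0.07 to 0.83) in TAL-like cells, so the values of these classes did not differ beyond counting error between the libraries. PT-like cells had 2 and 3 UMIs of Avpr2 in all and IC-like cells 3 and 1 UMIs.

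Of the 6 genes measured with at least 20 UMIs in CD-like cells 0 differed 2-fold or more, where 3.94% of all genes did. In IC-like with CD markers it was 0 of 8, against 3.01%. The median log2 ratio of the measured genes was 0.08 and -0.45 in these classes, and that of all genes 0.06 and 0.03.

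Other genes of vasopressin signalling, receptors Avpr1a and Avpr1b included, were read in the same CD-like cells. Of 13 listed vasopressin signalling genes 11 were measured and 0 passed 2-fold, which at 3.94% of all genes is near the background, with a median log2 ratio of -0.04. Gnas, the stimulatory G protein, was at 733 and 706 CPM, the cyclase Adcy6 at 40.9 and 39.8 CPM and the kinase subunit Prkaca at 40.1 and 41.98 CPM. The intervals of 3 genes left out 0. These were Prkar2a, a kinase regulatory subunit (47.99 and 63.7 CPM, 0.41, 0.19 to 0.63), and the largest ratios among those measured, those of Pde4d, which degrades cAMP (45.1 and 29.2 CPM, log2 ratio -0.63, -0.90 to -0.35), and of the transcription factor Elf3 (272 and 393 CPM, 0.53, 0.44 to 0.62).

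Genes of the tonicity response, which load cells with organic osmolytes, had a median log2 ratio of -0.03 over 6 measured of 7 listed in CD-like cells. Nfat5, their regulator, was at 153 and 149.9 CPM, the inositol carrier Slc5a3 at 47.7 and 52.9 CPM and aldose reductase Akr1b3 at 134 and 130.4 CPM. Of 6 tonicity and 6 sodium entry genes measured 0 passed 2-fold, again near the share of 3.94% of all genes. The sodium entry genes included the channel subunit Scnn1a at 171 and 213 CPM and Hsd11b2, which shields the mineralocorticoid receptor from glucocorticoid, at 1965 and 2384 CPM (0.28, 0.24 to 0.31).

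Aqp6, a channel of intracellular vesicles in acid-secreting intercalated cells, lies beside Aqp2 in the genome. Aqp2 spans chr15:99579055-99584547 and Aqp6 chr15:99601400-99605477 on the same strand (GRCm38), with 16.9 kb between them, and both are protein-coding. The 250 bases before each RefSeq start (GRCm38.p6) are shown because these neighbours had their highest levels in different classes. Capitals mark matches to the hypoxia response core (ACGTG or GCGTG), the half-site of the cAMP response element (TGACG) and the forkhead core (TAAACA), searched on both strands.
Aqp2, chr15:99578806-99579055, plus strand: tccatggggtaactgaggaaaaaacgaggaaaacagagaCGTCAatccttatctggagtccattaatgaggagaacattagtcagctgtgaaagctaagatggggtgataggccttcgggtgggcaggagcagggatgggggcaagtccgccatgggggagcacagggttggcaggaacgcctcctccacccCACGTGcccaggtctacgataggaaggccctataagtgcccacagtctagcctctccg
Aqp6, chr15:99600950-99601199, plus strand: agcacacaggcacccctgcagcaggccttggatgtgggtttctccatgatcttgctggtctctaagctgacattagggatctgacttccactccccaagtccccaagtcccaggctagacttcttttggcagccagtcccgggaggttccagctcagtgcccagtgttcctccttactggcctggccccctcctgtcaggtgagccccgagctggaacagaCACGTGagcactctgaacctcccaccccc

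Both windows held the palindrome CACGTG, which reads as ACGTG on each strand, beginning 58 bases before the Aqp2 start and 29 bases before the Aqp6 start. Aqp2 alone of the pair held the half-site, on the minus strand, 211 bases before its start. Of 32841 RefSeq windows of this length 38.6% held a hypoxia response core, 17.8% the half-site and 12% the forkhead core. The RefSeq start of Aqp6 lies upstream of the GENCODE start, and a match of letters describes the window and is not a binding site.

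In IC-like cells Aqp6 was at 713 CPM (679 to 748, 1686 UMIs) and 468 CPM (433 to 506, 635 UMIs), a log2 ratio of -0.61 (-0.74 to -0.47). In IC-like with CD markers it was at 357 and 250.2 CPM, a log2 ratio of -0.51 (-0.57 to -0.46). Both classes were lower in the library labelled PHDTiEC, by less than the 2-fold size used here to name a difference. The IC-like ratio was -0.90 without the highest doublet scores and -0.25 in classes set by marker UMIs alone. An Aqp6 UMI was found in 53.9% and 41.8% of IC-like cells, and in 33.7% and 26.3% with each cell thinned to 1000 UMIs. IC-like cells made up 2.11% and 1.18% of kept cells. Slc4a9 and Slc26a4 were among the genes that led their cluster. The class was not split into acid-secreting and other intercalated cells. The part of a different mix of these cells in the Aqp6 ratio was not tested.

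Aqp6 was rare among CD-like cells and Aqp2 rare among IC-like cells. Of the CD-like cells 143 and 160 held Aqp2 alone, 5 and 7 Aqp6 alone and 13 and 12 both. Of the IC-like cells 92 and 45 held Aqp6 alone, 2 and 2 Aqp2 alone and 5 and 1 both. In IC-like with CD markers 203 and 194 cells held both, and 121 and 122 held at least 5 UMIs of each. If the genes fell independently, both would be in 3.77% and 3.61% of CD-like, 2.096% and 1.14% of IC-like and 49.3% and 44.2% of IC-like with CD markers cells, and both were seen in 4.76% and 3.99%, 2.78% and 0.909% and 55.3% and 47.3%.

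**Figure D2:**
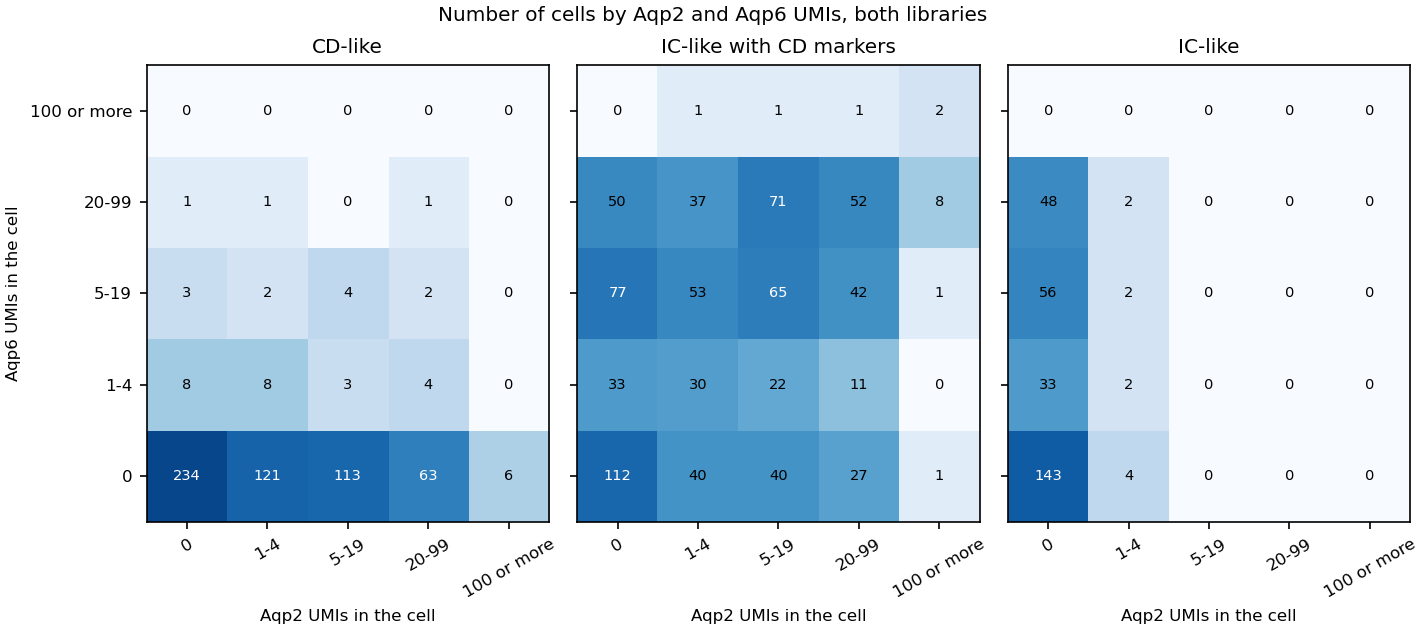
Number of cells by their Aqp2 UMIs (horizontal) and Aqp6 UMIs (vertical) in 3 classes, both libraries together. CD-like cells lie mostly along the bottom row and IC-like cells along the left column, while IC-like with CD markers fills the middle of its panel, with 65 cells at 5 to 19 UMIs of each gene.

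The cells with both genes were deep, with a median of 58962 and 57149.5 UMIs, against 33705.5 and 31181.5 UMIs in cells of that class with neither. Their median doublet score was 0.095 and 0.0792, that of cells with Aqp2 alone 0.0841 and 0.0864, with Aqp6 alone 0.106 and 0.0943 and with neither 0.119 and 0.102. Leaving out the 8% of barcodes with the highest scores kept 181 and 178 of the cells with both. The caller's own threshold had called 0 barcodes in either library, and the part of doublets in this class was not tested.

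Aqp1 had its highest level over both libraries together in endothelium, while in the Cre- library alone the mixed cluster 24, described below, was higher. Arterial or descending vasa recta (arterial/DVR) EC-like cells, 187 and 227 in number, had 499.9 CPM (468 to 534, 890 UMIs) for Cre- and 790.1 CPM (756 to 825, 2010 UMIs) for PHDTiEC, a log2 ratio of 0.66 (0.55 to 0.78). A UMI was found in 28.9% and 28.2% of these cells, and the top cell of each library held 142 and 381 UMIs. The top 19 and 23 cells held 90.5% and 88.7% of the Aqp1 UMIs of this class. Among cells with a UMI the median was 3.88 and 13.5 Aqp1 UMIs per 10000. The ratio was 0.37 without the highest doublet scores and 0.13 in classes set by marker UMIs alone. The class set by marker UMIs held 355 cells of this cluster and also 101 of cluster 24, so it was not the same set of cells. The thick limb marker Umod was at 178 and 17.3 CPM in these cells. Capillary EC-like cells were at 10.3 and 7.39 CPM of Aqp1, which is known from the descending vasa recta rather than from fenestrated vessels.

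The window before the Aqp1 start is shown because Aqp1 had its highest level over both libraries in the cell type that Cdh5-CreERT2 targets. It held 0 matches to the 3 motifs. Of the other windows searched, not shown, that of Aqp11 held 5 hypoxia response cores and that of Avpr2 1 forkhead core. Those of Aqp3 and Aqp7 held 0 matches. Aqp1 spans chr6:55336432-55348555, and the RefSeq start lies upstream of the GENCODE start.
Aqp1, chr6:55336049-55336298, plus strand: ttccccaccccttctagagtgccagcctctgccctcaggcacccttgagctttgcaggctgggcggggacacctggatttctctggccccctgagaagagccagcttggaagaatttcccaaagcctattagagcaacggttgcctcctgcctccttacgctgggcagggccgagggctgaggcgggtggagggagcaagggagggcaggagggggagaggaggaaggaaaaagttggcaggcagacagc

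In cluster 24 the direction was the opposite. Aqp1 was at 585 and 207 CPM, a log2 ratio of -1.50 (-1.65 to -1.35). Slc14a1, the urea channel UT-B of the descending vasa recta and of red cells, was at 72.4 CPM (61.6 to 84.6, 159 UMIs) and 12.96 CPM (8.87 to 18.3, 32 UMIs), a log2 ratio of -2.48 (-3.08 to -1.93). Slc14a1 was found in 13 of 91 and 9 of 112 cells, and 10 Cre- cells held 97.5% of its Cre- UMIs and 79.1% of those of Aqp1, each gene taken by its own top cells. Aqp11, a channel of the endoplasmic reticulum, was at 27.3 and 11.8 CPM, a log2 ratio of -1.22 (-1.91 to -0.56). All 3 genes measured there were lower by at least 2-fold in the library labelled PHDTiEC, where 5.73% of all genes differed by that much.

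Cluster 24 did not hold the same mixture in the libraries. Its mural markers summed to 4882 and 6030 CPM, its endothelial markers to 2895 and 2512 CPM and its TAL markers to 168 and 346 CPM, and 14.3% and 25% of its cells were among the highest doublet scores. Cells with more endothelial than mural UMIs, a split chosen after the data were seen, numbered 42 of 91 and 27 of 112. Within them Aqp1 was at 924 and 352 CPM (-1.39, -1.59 to -1.20), Slc14a1 at 113 and 13.6 CPM (-3.06, -4.10 to -2.17) and Aqp11 at 42.7 and 18.5 CPM (-1.20, -2.15 to -0.35). The other 49 and 85 cells had Aqp1 at 213 and 136 CPM (-0.65, -0.93 to -0.38), Slc14a1 at 27.7 and 12.7 CPM (-1.13, -2.01 to -0.27) and Aqp11 at 10.5 and 8.44 CPM (-0.32, -1.56 to 0.97). The ratios were smaller in these cells, only that of Slc14a1 of the 3 passed 2-fold, and the interval of Aqp11 spanned 0.

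**Figure D3:**
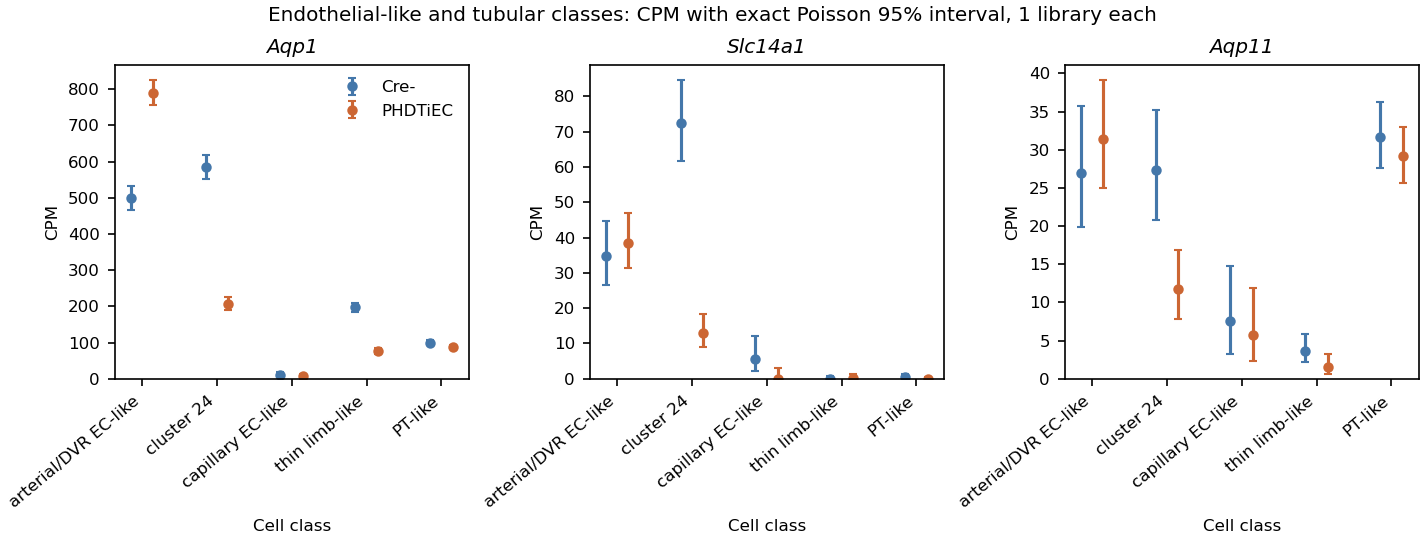
CPM of Aqp1, Slc14a1 and Aqp11 (vertical, separate scales) in 5 cell classes, with exact Poisson 95% intervals and 1 library per genotype. In cluster 24 each gene is lower in the PHDTiEC library (Aqp1 585 and 207 CPM), while arterial/DVR EC-like cells show Aqp1 at 499.9 and 790.1 CPM and overlapping intervals for the other genes.

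In arterial/DVR EC-like cells Slc14a1 was at 34.8 CPM (26.7 to 44.6, 62 UMIs) and 38.5 CPM (31.3 to 46.95, 98 UMIs), a log2 ratio of 0.15 (-0.33 to 0.63). All 11 Cre- cells with Slc14a1 and 21 of 25 cells of the other library also held Aqp1. Over all endothelial-like cells, cluster 24 included, Aqp1 was at 433 and 406 CPM (-0.10, -0.18 to -0.01) and Slc14a1 at 45.02 and 20.9 CPM (-1.11, -1.43 to -0.79). Of 4 genes measured in arterial/DVR EC-like cells 1 passed 2-fold, against 5.46% of all genes. That gene was Slc14a2, with 26 Cre- UMIs, 25 of them in 1 cell, and 0 in the other library, where 3 UMIs would be 1.18 CPM.

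Slc14a1 was also seen in white blood cells. T or NK-like cells had 13.6 and 11.1 CPM, with a UMI in 5.39% and 4.31% of cells, and dendritic-like cells had 6.56 and 12.7 CPM. Macrophage-like cells held 24.5% of all Slc14a1 UMIs, at 4.73 and 3.85 CPM with a UMI in 3.91% and 3.47% of cells. The free RNA held Slc14a1 at 2.28 and 2.301 CPM. Neutrophil-like cells had a UMI in 0 of 626 and 1 of 663 cells, at lower depth, and the exact 95% interval of the 0 reached 0.588%.

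Slc14a2 encodes the UT-A urea transporters of the thin descending limb and inner medullary duct. Thin limb-like cells (212 and 200) held 86.7% of its UMIs, at 580.3 CPM (559 to 602, 2833 UMIs) and 539 CPM (518 to 561, 2419 UMIs), a log2 ratio of -0.11 (-0.19 to -0.03). CD-like cells had 9 and 1 UMIs of it. The 3′ counts did not separate the UT-A isoforms. Thin limb-like cells also carried the injured proximal tubule (PT) list at 1013 and 1017 CPM. By marker UMIs alone 239 of them were set as thin limb and 119 as injured PT. The study itself took Slc14a2 as a marker of the inner medullary collecting duct. Slc14a1 and Slc14a2 are neighbouring genes, 4.03 kb apart, and were highest in different classes.

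Aqp1 in the same thin limb-like cells was at 197 CPM (185 to 209.9, 962 UMIs) and 77.1 CPM (69.2 to 85.7, 346 UMIs), a log2 ratio of -1.35 (-1.54 to -1.17). One Cre- cell held 317 of the UMIs, and without the top cell of each library the ratio was -1.05. Aqp1 alone was found in 29 and 21 cells, Slc14a2 alone in 79 and 90 and both in 24 and 16. Aqp11 was at 3.69 and 1.56 CPM, from 18 and 7 UMIs, and its ratio of -1.24 (-2.74 to 0.09) turned to 0.42 in classes set by marker UMIs alone. Thus 2 of 3 genes measured in thin limb-like cells were at least 2-fold lower in the library labelled PHDTiEC, against 2.56% of all genes differing by that much.

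Thick limb genes differed in both directions between the thin limb-like cells. Umod was at 190.3 and 79.4 CPM, a log2 ratio of -1.26 (-1.44 to -1.08), while the salt transporter Slc12a1 was at 3.69 and 9.81 CPM, from 18 and 44 UMIs, a log2 ratio of 1.41 (0.59 to 2.29). The TAL list summed to 219.8 and 101 CPM, with the thin limb list at 2232 and 2200 CPM. Aqp1 in TAL-like cells was at 14.2 and 1.45 CPM. The part of thick limb RNA in the Aqp1 ratio was not tested.

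Proximal tubule cells expressed Aqp1, Aqp7 and Aqp11 at close levels in both libraries. In PT-like cells (288 and 386) Aqp1 was at 99.8 and 87.9 CPM, a log2 ratio of -0.18 (-0.34 to -0.03). Aqp7, which carries glycerol and water, was at 14.7 and 15.8 CPM (0.10, -0.29 to 0.49) and Aqp11 at 31.7 and 29.1 CPM (-0.12, -0.39 to 0.15). In injured PT-like cells, led by the injury genes Havcr1 and Krt20, Aqp1 was at 34.5 and 34.9 CPM, Aqp7 at 10.4 and 9.55 CPM and Aqp11 at 7.42 and 8.67 CPM.

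Each of these channels was lower in injured PT-like than in PT-like cells of both libraries. For Aqp1 the Cre- intervals were 92.4 to 108 and 31.3 to 37.9 CPM, for Aqp11 27.6 to 36.3 and 5.97 to 9.11 CPM and for Aqp7 11.96 to 17.95 and 8.71 to 12.4 CPM. The intervals overlapped only for Aqp7 in the Cre- library, of the 3 genes in either library. Aqp8, an aquaporin outside the 10, had 24 and 1 UMIs in PT-like cells.

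In PT-like cells 1 of 4 measured genes passed 2-fold against 3.59% of all genes, the duct gene Aqp3, lower at 5.86 and 2.59 CPM. In injured PT-like cells 4 of 10 did against 3.11%: Aqp2 (6.52 and 18.3 CPM) and Avpr2 (1.22 and 2.81 CPM) were higher and Slc14a1 (1.63 and 0.0802 CPM) and Slc14a2 (4.24 and 1.69 CPM) lower in the library labelled PHDTiEC. In TAL-like cells 3 of 7 did against 3.38%, Aqp2 (2.48 and 5.13 CPM) and Aqp3 (1.74 and 7.27 CPM) higher and Aqp1 lower. In DCT-like cells 2 of 6 did against 3.97%, Aqp2 (1.84 and 4.26 CPM) and Aqp6 (3.35 and 7.11 CPM), both higher.

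These levels stood beside a free RNA estimated at 12.6% and 11.9% of the UMIs of injured PT-like, 12.3% and 11.99% of TAL-like and 10.5% and 9.61% of DCT-like cells. For tubule classes the estimate came from markers of immune, endothelial, fibroblast and mural cells, compared with their level in the free RNA. No tubule marker entered it, so RNA of other tubule cells was not read directly, and doublets were not separated from free RNA. The estimate was larger in IC-like (30.45% and 31.99%), thin limb-like (28.97% and 28.61%) and CD-like cells (19.69% and 15.71%). It was 18.82% and 14.7% in arterial/DVR EC-like cells and 13.88% and 20.13% in cluster 24. The free RNA itself held Aqp2 at 56.4 and 52.1 CPM, Aqp6 at 72.8 and 59.3 CPM and Slc14a2 at 16.99 and 12.8 CPM. Ratios were also recomputed with free RNA subtracted by this estimate. Fewer pairs of a gene and a class could then be measured and fewer passed 2-fold, as counted at the end. The part of free RNA in each ratio was not tested further. Single cells held a large part of several counts. Of the 228 Aqp2 UMIs in injured PT-like cells of the library labelled PHDTiEC 75 came from 1 cell, as did 73 of the 172 Aqp1 UMIs in Cre- TAL-like cells. Without the highest doublet scores the Aqp1 ratio in TAL-like cells turned from -3.29 to 0.45 and the Slc14a2 ratio in injured PT-like cells from -1.33 to 1.48. The Aqp2 ratio in DCT-like cells turned from 1.22 to -0.02 at a clustering resolution of 0.4.

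**Figure D4:**
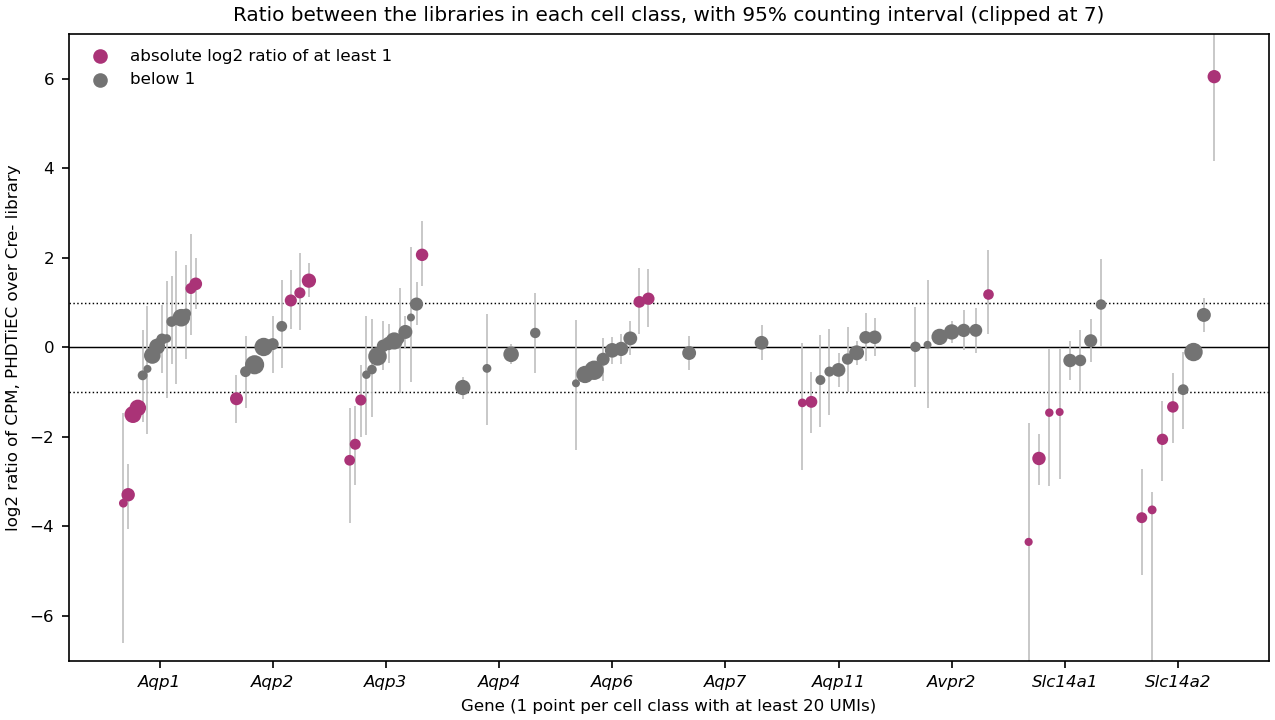
log2 ratio of CPM (PHDTiEC over Cre-, vertical) of each gene in every class with at least 20 UMIs of it, ordered by ratio within a gene, with the 95% counting interval as a line and a larger point for more UMIs. Dotted lines mark 2-fold, and Aqp1 has large points on both sides of 0, at 0.66 in arterial/DVR EC-like cells and -1.50 in cluster 24.

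Over the 26 classes 86 pairs of a gene and a class had at least 20 UMIs, of which 10 were at least 2-fold higher and 18 at least 2-fold lower in the library labelled PHDTiEC, against 4.91% of such pairs over all genes in either direction. Slc14a2 in pericyte-like cells had 2 and 175 UMIs, 151 of them in 1 cell of the library labelled PHDTiEC. Slc14a2 in fibroblast-like cells was at 26.1 and 1.87 CPM, with 41 of 49 Cre- UMIs in 1 cell. In urothelial-like cells (24 and 34) Aqp3 was lower, at 89.8 and 20.02 CPM (-2.17, -3.07 to -1.32), and Slc14a1 had 12 and 8 UMIs. With the 10 genes among the variable genes the Aqp3 ratio there was -0.58.

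The remaining pairs past 2-fold were in 4 classes. Aqp1 was higher in cluster 26, a cycling cluster (16.2 and 43.3 CPM, 81 of 91 UMIs of the library labelled PHDTiEC in 1 cell), where its ratio turned to -0.39 without the top cells, and in fibroblast-like cells (4.79 and 11.9 CPM). Aqp6 was higher in macrophage-like cells (1.17 and 2.36 CPM) and Slc14a2 lower (2.58 and 0.622 CPM), and with classes set by marker UMIs alone these ratios turned to -0.07 and 0.48. In cluster 26 Aqp2 (45.3 and 20.4 CPM) and Aqp3 (19.1 and 3.33 CPM) were lower, and the Aqp2 ratio turned to 1.12 without the highest doublet scores. In cluster 20, another cycling cluster, Aqp1 (7.15 and 0.641 CPM) and Slc14a1 (5.29 and 1.92 CPM) were lower.

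The genes whose levels followed each member most closely over the 52 class sums are given as a description, since the classes of a library share depth and free RNA. Aqp2 was closest to Col26a1 (Pearson r = 0.88) and was at 0.86 with Aqp4. Aqp4 was closest to 9230110F11Rik and Elf5 (0.89 and 0.88). Aqp3 was closest to Fxyd4 (0.82), Avpr2 to Hsd11b2 (0.87) and Aqp6 to Foxi1 (0.92). Aqp7 was closest to Akr1c20 (0.94), Aqp11 to Fbxo7 (0.83), Aqp1 to Tmem252 (0.86), Slc14a2 to Uncx (0.85) and Slc14a1 to the ribosomal gene Rps6 (0.74).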

How the data were processed

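Single-cell RNA (10X Genomics 3′ v3.1) of 1 Cre- and 1 PHDTiEC kidney was deposited by the authors as raw UMI counts per gene and barcode, made with Cell Ranger 4 on mm10 (file headers and labels), with no cell filter, normalization or free RNA correction. The barcode and gene lists hold no values. Barcodes with 500 to 100000 UMIs, at least 200 genes and at most 50% mitochondrial UMIs were kept. In Seurat 5.3.0 (R 4.3.3) counts were scaled to 10000 per cell and logged, 2000 variable genes without the 10 members and the other aquaporins (9 of them left out) gave 20 principal components, and clusters were made at resolution 0.8 with no integration. Marker lists named the clusters. Names were rebuilt here and may differ from the study's. Doublets were kept, since scanpy 1.11.5 (scrublet) called 0.

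UMIs were summed per class and library. Genes named are the 10 members in the classes with their highest CPM and in every class with at least 20 UMIs and a log2 ratio of at least 1 in size, the listed pathway genes, and the closest genes over class sums. A gene at 0 was set to 3 UMIs for a bound. Ratio intervals were tested on simulated counts drawn independently. These held no gathering of UMIs in single cells, so the test cannot show how the intervals fare where single cells dominate. Members and lists were chosen with earlier results of these data known. Other cell filters, clusterings, denominators and free RNA subtraction were tried. Sequences are from RefSeq (GRCm38.p6), gene spans from GENCODE vM21. Promoter windows of 7 of the 10 members were searched. Intervals are 95%, and with the sums above they cover counting error only.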

Additional observations from a re-analysis of the deposited data

How the results depend on the processing

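No paired analysis was possible because each genotype has 1 library, and no replicate could be left out. Of the recomputed log2 ratios that answer a comparison 98 stayed within the counting interval and 16 moved, and of the other ratios 251 stayed, 32 moved and 11 reversed. The cause was not tested for any of them. Without the highest doublet scores (chosen after seeing the data) the log2 ratio was 0.374 for Aqp1 in arterial/DVR EC-like, -0.902 for Aqp6 in IC-like, and reversed to 0.449 for Aqp1 in TAL-like, 1.123 for Aqp2 in cluster 26 and 1.477 for Slc14a2 in injured PT-like cells. With classes set by marker UMIs alone it was 0.133 for Aqp1 in arterial/DVR EC-like, -0.142, -0.068 and -0.42 for Aqp2, Aqp3 and Aqp4 in CD-like, -0.248 for Aqp6 in IC-like and -0.355 for Slc14a2 in thin limb-like cells. It reversed there to 0.565 for Aqp1 in TAL-like, -0.069 for Aqp6 and 0.483 for Slc14a2 in macrophage-like, and 0.415 for Aqp11 in thin limb-like cells. At resolution 0.4 it was -0.008 for Slc14a2 in thin limb-like cells and reversed to -0.015 for Aqp2 in DCT-like cells. With the 10 genes among the variable genes Slc14a2 in injured PT-like cells reversed to 1.753. As a mean over cells it was 0.998 for Aqp1 in arterial/DVR EC-like, -0.431 for Aqp4 in CD-like, -0.89 for Aqp6 in IC-like and -0.002 for Slc14a2 in thin limb-like cells, and reversed to -0.097 for Aqp2 in DCT-like cells. Aqp2 in CD-like cells was at -0.099 without mitochondrial and ribosomal counts in the denominator and -0.079 without the top cells, Slc14a2 in thin limb-like at -0.211 and Aqp1 in cluster 26 reversed to -0.391 without the top cells.

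The pairs at least 2-fold lower numbered 11 of 67 without the highest doublet scores, and those higher 6 of 72 at resolution 0.4. With free RNA subtracted 5 were higher and 9 lower of 51. With at least 1 UMI in each library as the minimum 26 were higher and 36 lower, with at least 100 UMIs 5 and 5, and at an absolute log2 ratio of at least 0.5 18 and 29. The share over all genes was not computed at these other settings, so the 4.91% given above is not their background. The difference in the share of PT-like cells with Aqp11 was -9.21 percentage points, and -0.881 with each cell thinned to 1000 UMIs. The planned removal of called doublets was not run, since 0 were called. IC-like cells merged with others at resolution 0.4, cluster 24 and IC-like with CD markers have no class by marker UMIs alone, and free RNA subtraction left some levels at or below 0, so these gave no value. By marker UMIs alone 101 cells of cluster 24 were set as arterial/DVR EC-like. Of IC-like with CD markers 534 cells were set as CD-like and 111 as IC-like. With 1 mouse per genotype, a difference between mice and one between genotypes cannot be told apart.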
